A study of Mus musculus with 6 samples.

Results

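Ribosomal protein genes encode the protein part of the cytoplasmic ribosome, the particle that translates every nuclear mRNA of the cell. They were followed in epidermal basal cells of the mouse by a rule on gene symbols alone: Rpl or Rps followed by a digit, Rplp0 to Rplp2, or Rpsa, without pseudogenes named -ps, S6 kinases and Rps19bp1. The rule found 49 genes among the 18193 genes that had an array probe set naming them alone. The genes divided into 20 of the large subunit, 2 of its stalk, 21 of the small subunit and 6 paralogs, which are related copies of a main gene. Of these, 48 were annotated as protein coding and 1, Rps4l, as a transcribed pseudogene.

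The cells came from 3 groups of 2 arrays each, all from female C57BL/6 mice given as 10 weeks old. The groups were ventral skin at 16 days post coitum (16 dpc), dorsal skin at 16 dpc, and ventral skin of virgin mice. Skin was freed of dermis by cold trypsin, and live cells carrying α6-integrin, the receptor that anchors basal keratinocytes, were sorted. Ventral skin is the skin that stretches over the growing abdomen. The design asks which transcripts differ in ventral basal cells with pregnancy, and which differ between the abdomen and the back of pregnant mice. There was no group of virgin dorsal cells in the samples analysed here, so the 16 dpc dorsal and virgin ventral groups differ in both site and pregnancy.

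A ribosome is built in the nucleolus, where ribosomal RNA is transcribed and joined by one copy each of nearly all ribosomal proteins, so that their mRNAs are made in balance. These mRNAs begin with a run of pyrimidines, the 5′ terminal oligopyrimidine (TOP) motif, through which mTORC1 sets how strongly they are translated. An array measures the amount of such an mRNA and not its translation. In mouse skin, partial loss of Rps19 or Rps20 stabilises p53 in keratinocytes and darkens the skin.

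RefSeq start windows were available for 41 of the 47 genes measured above background, and 24 of these (58.5%) held an unbroken run of at least 7 C or T bases between 10 bases before and 20 bases from the annotated start, read on the transcribed strand. Of all 27025 genes with a window, 20.5% did. The windows below show the run in capitals for genes whose values are described later, with positions on GRCm38.p6 and the transcribed strand. They show pyrimidine runs near the start in large-subunit, stalk and small-subunit genes and in paralogs. A run counted wherever it lay in the window, so a marked run need not be a TOP motif, which begins at the start itself. In Rpl13a, Rpl22l1 and Rpl39 the run begins downstream of the annotated start. Rpl7l1 and Rps28 are shown as windows without such a run.
Rpl13a, chr7:45128726-45128755, minus strand: cctgcgacaagaCCTCCTCCTTTCCCaggc
Rpl27a, chr7:109519185-109519214, plus strand: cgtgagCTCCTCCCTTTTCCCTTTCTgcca
Rpl35, chr2:39005112-39005141, minus strand: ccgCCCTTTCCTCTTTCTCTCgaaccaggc
Rpl39, chrX:37085203-37085232, minus strand: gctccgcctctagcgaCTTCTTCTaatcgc
Rplp2, chr7:141447641-141447670, plus strand: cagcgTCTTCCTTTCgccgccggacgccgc
Rps6, chr4:86857348-86857377, minus strand: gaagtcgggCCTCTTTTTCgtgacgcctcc
Rps18, chr17:33955646-33955675, minus strand: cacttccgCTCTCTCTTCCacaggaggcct
Rps27, chr3:90213629-90213658, minus strand: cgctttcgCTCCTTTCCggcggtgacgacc
Rpl22l1, chr3:28805498-28805527, plus strand: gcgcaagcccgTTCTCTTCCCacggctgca
Rpl7l1, chr17:46782637-46782666, minus strand: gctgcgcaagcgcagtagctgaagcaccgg
Rps28, chr17:33824543-33824572, minus strand: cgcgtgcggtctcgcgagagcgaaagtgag

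The longest run among these windows was 20 bases in Rpl27a, followed by 18 in Rpl35 and 14 in Rpl13a. The letters CCGGAAG, a core bound by ETS-family factors, occurred on either strand in the 300-base promoter windows of 21 of the 41 genes (51.2%), against 9.93% of all genes. The letters AAGATGG, part of the YY1 motif, occurred in 7 (17.1%), against 7.28% of all genes, and TATAAA, the core of the TATA box, in 6 (14.6%), against 15.7%. A match is a description of the sequence and not a measured binding site.

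The signal of each array had been scaled by the authors to a trimmed mean of 500.0 arbitrary units, and each probe set carried a call of present, marginal or absent. Between 47.2% and 53.3% of the 45101 probe sets were called present on an array. All 12 basal keratinocyte markers of a list were present on all 6 arrays, and their summed signal was 179638 and 204086 in 16 dpc ventral, 172853 and 246425 in 16 dpc dorsal and 200060 and 193149 in virgin ventral cells. None of 5 endothelial markers and neither of the 2 erythroid markers on the array was present on any array. Markers of other cells in the sort differed between groups or arrays. The 8 T cell markers on the array, 3 of them present on all 6 arrays, summed to 3612 and 4616 in 16 dpc ventral, 1878 and 2931 in 16 dpc dorsal and 743 and 793 in virgin ventral cells. The 10 markers of Langerhans and other antigen-presenting cells summed to 9663 and 6615, 9347 and 8255, and 4856 and 3308 in the same order of groups. The 7 mammary markers summed to 7701 on 16 dpc ventral replicate 1 and to between 445 and 1049 on the other 5 arrays. The 10 markers of hair follicle and sebaceous gland summed to 25195 and 12299 in 16 dpc ventral, 24869 and 13238 in 16 dpc dorsal, and 22221 and 30583 in virgin ventral cells, so that both 16 dpc arrays numbered 2 were low. Of 11 spinous and granular markers, 10 had a lower mean in 16 dpc ventral than in virgin ventral cells, with sums of 115101 and 124866 against 139391 and 141261. The 9 markers of cycling cells summed to 23104 and 32855 in 16 dpc ventral, 14048 and 21345 in 16 dpc dorsal, and 12948 and 20359 in virgin ventral cells. Their part in the results below was not tested. The labels do not say whether replicate arrays held different animals, so p-values reflect the spread between these arrays alone, which may be technical. Precision is limited by there being 2 arrays in each group.

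Of the 49 genes, 47 had a present call on the 2 arrays of 1 group or more and were tested, and 44 were present on all 6 arrays. Most were bright: 34 had a mean signal over 16384 and 8 had one under 2048, with a range from 42.3 for Rpl39l to 46068 for Rps29. The level of one probe set cannot be set against that of another, since probes differ in how well they bind. The genes not tested were Rpl3l, the large-subunit paralog of heart and skeletal muscle, which was absent on all 6 arrays, and Rps16, whose sole probe set of its own was absent on all 6. A pair of probe sets that name Rps16 together with other genes gave signals between 24137 and 43874, which cannot be assigned to it. A further 31 ribosomal protein symbols occurred only on probe sets naming several genes, so that they could not be followed one by one.

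No ribosomal protein gene passed the test in any comparison. In 16 dpc ventral over virgin ventral cells, 0 of 47 passed an adjusted p of 0.05 (limma, Benjamini-Hochberg over 10993 genes), beside 22 of all genes (0.2%). At an unadjusted p under 0.05 there was 1 gene, Rps4l, or 2.13%, against 11.6% of all genes. In 16 dpc ventral over 16 dpc dorsal cells, 0 of 47 passed, beside 9 of all genes (0.0819%), and 1 had an unadjusted p under 0.05, Rpl39, against 5.09% of all genes. In 16 dpc dorsal over virgin ventral cells, 0 of 47 passed, beside 0 of all genes (0%), and 3 had an unadjusted p under 0.05, namely Rpl39, Rps4l and Rpl7l1 (6.38%, against 7.27% of all genes). All of these counts are from limma. The count of members that passed was also 0 in each of the 16 other processing settings.

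The 95% interval of the fold change lay inside a 2-fold change in either direction for 43 of 47 ribosomal protein genes in each comparison (91.5%), against 72.3%, 77.0% and 75.1% of all genes in the order of comparisons above. It lay inside a 1.5-fold change for 22, 14 and 25 of 47, so that smaller differences were not resolved for the others. The shares of all genes were not matched for brightness, on which the fitted spread depends, and most of the 47 genes were bright. The median log2 fold change of the 47 genes was −0.11 for 16 dpc ventral over virgin ventral cells, with quartiles of −0.15 and −0.07, beside 0.02 over all genes. It was −0.16 for 16 dpc ventral over 16 dpc dorsal cells, beside −0.03 over all genes, and 0.06 for 16 dpc dorsal over virgin ventral cells, beside 0.07. The large subunit (−0.12) and the small subunit (−0.11) had nearly the same median in 16 dpc ventral over virgin ventral cells.

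**Figure D1:**
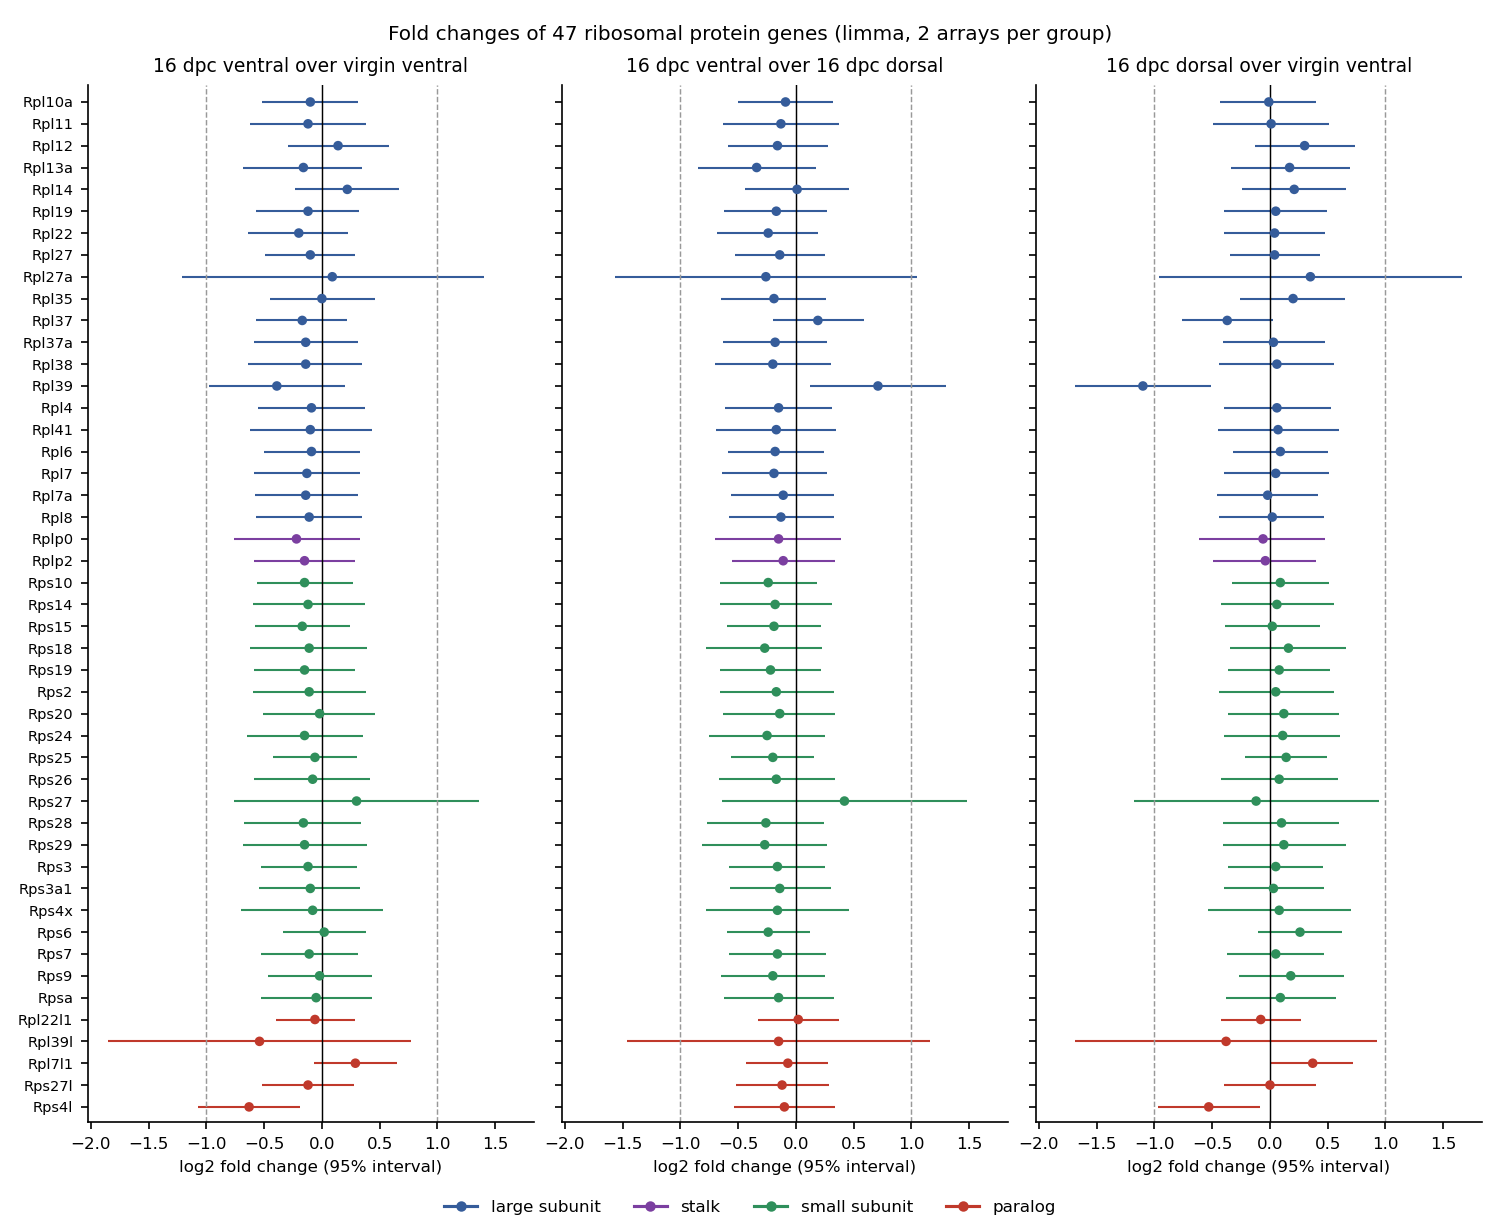
Log2 fold change (x axis) of each of the 47 ribosomal protein genes (rows, coloured by role) in 3 comparisons of 2 arrays per group, with bars for the limma 95% interval and dashed lines at a 2-fold change. With deposited signals most genes lie just left of 0 in both panels of 16 dpc ventral cells, where the medians are −0.11 and −0.16 (−0.02 and −0.01 after quantile normalisation, 0.09 and −0.13 after median centring), and the intervals of 43 of 47 genes lie between the dashed lines in each panel.

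Small as they were, these differences had a common direction in the deposited signals, which depended on the scaling: 40 of 47 genes had a lower mean in 16 dpc ventral than in virgin ventral cells, 42 had a lower mean in 16 dpc ventral than in 16 dpc dorsal cells, and 36 had a higher mean in 16 dpc dorsal than in virgin ventral cells. After quantile normalisation the counts were 32, 26 and 22 in the same order. After median centring they were 4, 42 and 43, and there the median over all genes was itself 0.23 for 16 dpc ventral over virgin ventral, −0.01 for 16 dpc ventral over 16 dpc dorsal and 0.24 for 16 dpc dorsal over virgin ventral cells. The comparisons share arrays. Within replicate numbers the direction differed between the numbers in both comparisons with virgin cells and was the same in 16 dpc ventral over 16 dpc dorsal cells. In 16 dpc ventral over virgin ventral cells the median was −0.27 between the arrays numbered 1, with 2 of 47 genes higher, and 0.03 between the arrays numbered 2, with 32 higher. In 16 dpc dorsal over virgin ventral cells it was −0.20 with 6 higher, and 0.31 with 40 higher. In 16 dpc ventral over 16 dpc dorsal cells it was −0.06 with 9 higher, and −0.26 with 6 higher. Groups did not overlap for 2 genes with higher values and 13 with lower values in 16 dpc ventral than in virgin ventral cells (all genes, 23.8% higher and 19.8% lower), and for 1 higher and 4 lower in 16 dpc ventral than in 16 dpc dorsal cells (all genes, 13.1% and 19.7%).

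The ribosomal protein genes moved together from array to array. Expressed as the deviation of each gene's log2 signal from its own mean over the 6 arrays, the median of the 47 genes was −0.19 and 0.02 in 16 dpc ventral cells, −0.14 and 0.28 in 16 dpc dorsal cells, and 0.07 and −0.02 in virgin ventral cells, with replicate 1 first. The array of 16 dpc dorsal replicate 2 gave the highest of the 6 signals for 38 of 47 genes, and that of 16 dpc ventral replicate 1 the lowest for 32. The difference between replicates (2 minus 1) had a median of 0.20 in 16 dpc ventral, 0.41 in 16 dpc dorsal and −0.09 in virgin ventral cells, with 45, 43 and 9 of 47 genes higher on replicate 2. The replicate difference of 0.41 within one group was larger than any of the median differences between groups.

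Of the 47 genes, 17 were read from a probe set with a name ending _x_at and 1 from one ending _s_at. Keeping only probe sets ending _at or _a_at left 42 genes. For 16 dpc ventral cells their median log2 fold change was −0.10 with virgin cells as the reference and −0.15 with dorsal cells. Probe sets not used for the 47 genes gave a similar shift. Whether any of these probe sets also read the mRNAs of related genes was not tested. The 101 probe sets that name a ribosomal protein gene beside other genes and were present on all arrays had median deviations of −0.21 and 0.03 in 16 dpc ventral, −0.15 and 0.33 in 16 dpc dorsal, and 0.06 and −0.03 in virgin ventral cells. A further 47 probe sets of the members themselves, present on all arrays, had a median log2 fold change of −0.09 for 16 dpc ventral over virgin ventral cells and −0.17 for 16 dpc ventral over 16 dpc dorsal cells. Together, all probe sets naming a ribosomal protein gene made up 11.4% and 12.7% of the summed signal in 16 dpc ventral, 11.8% and 14.9% in 16 dpc dorsal, and 13.1% and 12.5% in virgin ventral cells.

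The shift was clearest in the bright genes and was not particular to ribosomal proteins. All 34 members with a mean signal over 16384 were highest on 16 dpc dorsal replicate 2, and 27 of them were lowest on 16 dpc ventral replicate 1. The other 13 members were highest on that dorsal array in 4 cases. The 115 other genes with a mean signal over 16384 had median deviations of −0.13 and 0.04 in 16 dpc ventral, −0.11 and 0.23 in 16 dpc dorsal, and 0.06 and −0.05 in virgin ventral cells, and 82 of them were highest on 16 dpc dorsal replicate 2. The level of 16384 was chosen after the signals had been seen. Over all genes the medians lay between −0.04 and 0.08.

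Signs of RNA quality differed between the same arrays. The ratio of 3′ to 5′ probe set signal for actin was 1.78 and 3.90 in 16 dpc ventral, 2.04 and 4.47 in 16 dpc dorsal, and 2.46 and 2.15 in virgin ventral cells. For GAPDH it was 1.61 and 2.86, 1.89 and 2.83, and 2.50 and 1.53 in the same order. In each group the replicate with the higher ratios was also the one with the higher median of ribosomal protein genes. Their part in the shift was not tested. After quantile normalisation, which gives all arrays one distribution of signals, the medians of the 47 genes lay between −0.01 and 0.02 on all 6 arrays, and the group medians were −0.02, −0.01 and −0.01 in the order of comparisons above. The median absolute difference between replicates was then 0.07 in 16 dpc ventral, 0.10 in 16 dpc dorsal and 0.07 in virgin ventral cells, against 0.22, 0.24 and 0.24 over all genes. With deposited signals it was 0.20, 0.41 and 0.10, against 0.22, 0.25 and 0.24 over all genes. Quantile normalisation leaves the brightest genes little room to differ between arrays. The small values of these mostly bright genes after it are therefore no result about them, and all genes were not matched for brightness.

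**Figure D2:**
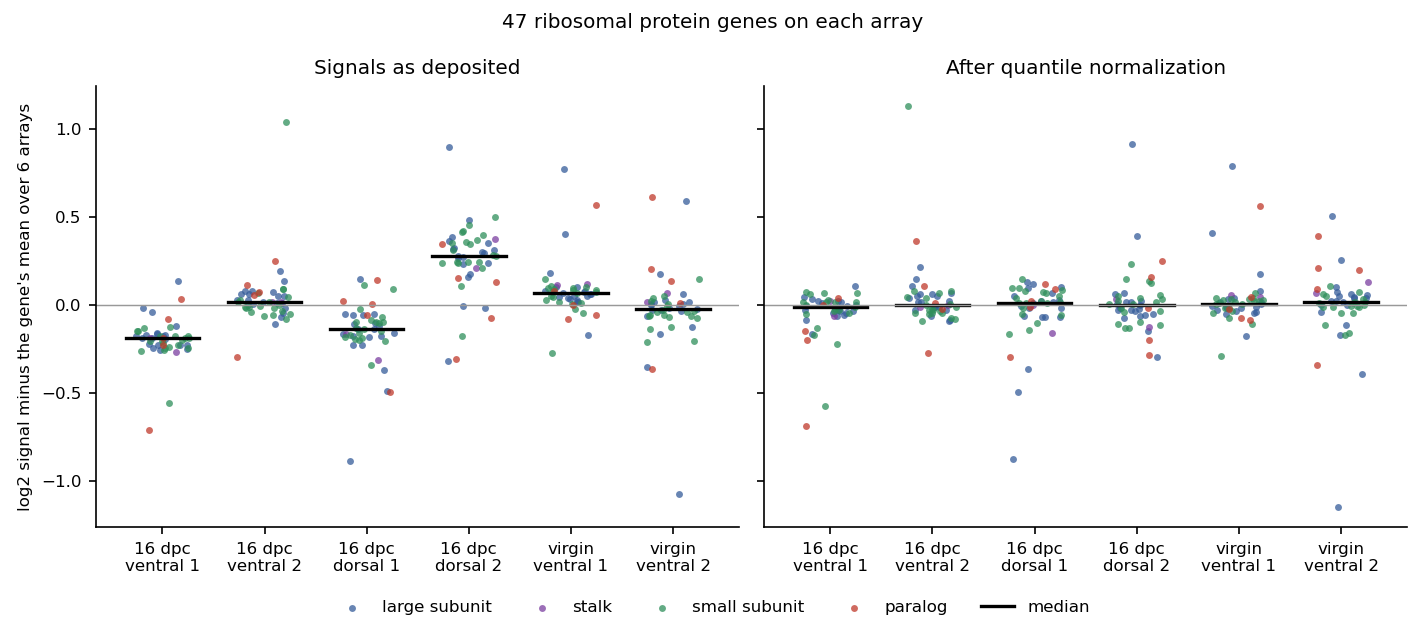
Log2 signal of each of the 47 ribosomal protein genes minus its own mean over the 6 arrays (y axis), by array (x axis), for signals as deposited and after quantile normalisation. Points are genes coloured by role and black lines are medians. With deposited signals the medians range from −0.19 on 16 dpc ventral replicate 1 to 0.28 on 16 dpc dorsal replicate 2, and after normalisation from −0.01 to 0.02.

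Among the large-subunit genes, Rpl13a, whose protein also represses translation of some inflammatory mRNAs, was read from its brightest probe set. The signal was 37686 and 41053 in 16 dpc ventral, 40171 and 61595 in 16 dpc dorsal, and 44703 and 43491 in virgin ventral cells. The 16 dpc ventral arrays were the lower ones against virgin cells without overlap, but the log2 fold change was −0.16 ± 0.23 (SE, limma adjusted p = 0.823). Against dorsal cells it had the lowest log2 fold change of all members, −0.34 ± 0.23 (adjusted p = 1.0), which rested on the second dorsal array, since the difference was −0.09 between arrays numbered 1 and −0.59 between those numbered 2. Its other 3 probe sets gave −0.11, 0.07 and −0.07 against dorsal cells and −0.07, 0.24 and 0.02 over virgin cells, so these values rest on 1 probe set. Rpl22, known for its need in T cell development, gave 28005 and 31285 in 16 dpc ventral, 30511 and 40204 in 16 dpc dorsal, and 34694 and 33467 in virgin ventral cells. Rpl35, which sits near the exit of the tunnel for the growing peptide, had a log2 fold change of 0.00 over virgin and −0.19 over dorsal cells.

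Several dimmer large-subunit probe sets did not follow the common pattern. Rpl37 had signals of 6544 and 7809 in 16 dpc ventral, 5520 and 7089 in 16 dpc dorsal, and 8082 and 8056 in virgin ventral cells. Its dorsal arrays were the lowest within each replicate number, with a log2 fold change of −0.37 ± 0.17 for 16 dpc dorsal over virgin ventral cells (adjusted p = 0.697). Rpl12, a protein at the base of the stalk, gave 787 and 804, 770 and 1024, and 709 and 731 in the same order of groups, so that both pregnant groups lay above the virgin arrays. Its log2 fold change was 0.14 ± 0.19 in 16 dpc ventral and 0.30 ± 0.19 in 16 dpc dorsal over virgin ventral cells (adjusted p = 0.816 and 0.725). Rpl14 gave 948 and 1111 in 16 dpc ventral and 1022 and 763 in virgin ventral cells, which overlapped. Its log2 fold changes were 0.22 over virgin and 0.01 over dorsal cells. The value over virgin cells rested on 1 array, as it was 0.01 without virgin ventral replicate 2. Rpl27a was the least reproducible member, with 699 and 820 in 16 dpc ventral, 561 and 1461 in 16 dpc dorsal, and 1343 and 374 in virgin ventral cells, and the groups overlapped throughout.

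Rpl39, a short protein that lines the exit tunnel, had the largest range between group means of all members, 1.10 on the log2 scale. Its own probe set, of chromosome X, gave 320 and 308 in 16 dpc ventral, 158 and 235 in 16 dpc dorsal, and 386 and 439 in virgin ventral cells, with no overlap between any of the groups, and was called marginal on 16 dpc ventral replicate 2. The log2 fold change was 0.71 ± 0.26 for 16 dpc ventral over 16 dpc dorsal cells (adjusted p = 0.816) and −1.10 ± 0.26 for 16 dpc dorsal over virgin ventral cells (adjusted p = 0.371). A brighter probe set that names Rpl39 with another gene did not follow this order. It gave 28121 and 31409 in 16 dpc ventral, 28866 and 46762 in 16 dpc dorsal, and 35954 and 31720 in virgin ventral cells, with log2 fold changes of −0.31 and 0.12 in those comparisons. The 2 probe sets therefore differed in sign in both, and which of them reads the Rpl39 mRNA cannot be told apart here.

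The stalk binds the elongation factors that drive translation, and its genes Rplp0 and Rplp2 were measured. Rplp0, often used as a reference gene in quantitative PCR, had signals of 28496 and 34655 in 16 dpc ventral, 27577 and 44344 in 16 dpc dorsal, and 37169 and 35887 in virgin ventral cells. The virgin arrays lay above both 16 dpc ventral arrays, with a log2 fold change of −0.22 ± 0.24 (adjusted p = 0.774), the lowest among the bright members. Rplp2 gave 32471 and 37409, 32967 and 42777, and 39992 and 37366 in the same order, and its groups overlapped. Its log2 fold change was −0.15 over virgin and −0.11 over dorsal cells.

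Of the small-subunit genes, Rps6, the protein that S6 kinases phosphorylate downstream of mTORC1, had signals of 4286 and 4937 in 16 dpc ventral, 5153 and 5729 in 16 dpc dorsal, and 4889 and 4200 in virgin ventral cells. The dorsal arrays lay above both other groups, with log2 fold changes of 0.26 ± 0.16 for 16 dpc dorsal over virgin ventral cells (adjusted p = 0.719) and −0.24 ± 0.16 for 16 dpc ventral over 16 dpc dorsal cells (adjusted p = 1.0). Rps18, at the head of the subunit, gave 39489 and 42248 in 16 dpc ventral, 40665 and 59817 in 16 dpc dorsal, and 47828 and 40888 in virgin ventral cells. Rps24, Rps28 and Rps29 followed it, with log2 fold changes of −0.25, −0.26 and −0.27 for 16 dpc ventral over 16 dpc dorsal cells and between −0.16 and −0.15 over virgin cells. In all 4 the difference from dorsal cells was at most 0.09 in size between the arrays numbered 1 and at least 0.41 between those numbered 2. For Rps18 the log2 fold change was −0.27 over dorsal and −0.11 over virgin cells. Its other bright probe sets gave −0.08 and −0.18 over dorsal and −0.10 and −0.17 over virgin cells. Averaging all its probe sets, dim ones included, gave −0.25 over dorsal and 0.41 over virgin cells.

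Rps27, a small-subunit protein with a zinc finger, had a dim probe set of its own on which 1 array stood apart. It gave 130 and 391 in 16 dpc ventral, 168 and 168 in 16 dpc dorsal, and 158 and 211 in virgin ventral cells, so that its positive log2 fold changes of 0.30 and 0.42 came from 16 dpc ventral replicate 2. A bright probe set naming Rps27 with another gene had log2 fold changes of −0.14 over virgin and −0.13 over dorsal cells. Rps19 and Rps20, looked at for their role in skin colour after their values had been seen, gave 25523 and 30117 against 31970 and 29437, and 41031 and 45412 against 49574 and 38751, in 16 dpc ventral against virgin ventral cells. The groups overlapped for both. Of 11 p53 target genes measured, 0 passed the test in 16 dpc ventral over virgin ventral cells (limma, with 0 at an unadjusted p under 0.05), and 8 had a lower mean. Over all genes 0.2% passed, 11.6% had an unadjusted p under 0.05 and 5168 of 10993 had a lower mean. With so few genes, a count of 0 past the test is no result about p53.

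Among the paralogs, Rps4l had the smallest p of all members in 16 dpc ventral over virgin ventral cells. This copy, annotated as a transcribed pseudogene on chromosome 6, gave 961 and 890 in 16 dpc ventral, 1110 and 884 in 16 dpc dorsal, and 1619 and 1261 in virgin ventral cells. All 4 arrays of pregnant mice lay below both virgin arrays. Its mean was 926 ± 49.9 in 16 dpc ventral and 1440 ± 253 in virgin ventral cells (SD, n = 2 each), a log2 fold change of −0.63 ± 0.19. The unadjusted p was 0.0107 and the adjusted p 0.268 by limma, and over the 16 other settings the adjusted p ran between 0.127 and 0.909. For 16 dpc dorsal over virgin ventral cells the log2 fold change was −0.53 ± 0.19 (adjusted p = 0.657), and for 16 dpc ventral over 16 dpc dorsal cells −0.10 ± 0.19 (adjusted p = 1.0).

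Rpl7l1, a relative of Rpl7, ran the other way. It gave 2188 and 2308 in 16 dpc ventral, 2356 and 2377 in 16 dpc dorsal, and 2026 and 1663 in virgin ventral cells, so that all 4 arrays of pregnant mice lay above both virgin arrays. The log2 fold change was 0.29 ± 0.16 in 16 dpc ventral (adjusted p = 0.514) and 0.37 ± 0.16 in 16 dpc dorsal cells (adjusted p = 0.686), each over virgin ventral cells. Its other probe sets gave smaller values over virgin cells, 0.20 and −0.01 in 16 dpc ventral cells.

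Rpl22l1, the paralog that can stand in for Rpl22, had group means within 0.08 of each other on the log2 scale, with 13615 and 14931 in 16 dpc ventral, 14447 and 13654 in 16 dpc dorsal, and 15193 and 14462 in virgin ventral cells. Rps27l, a p53 target in other cells, gave 12500 and 15421, 14081 and 16060, and 14098 and 16095 in the same order, with a log2 fold change of −0.12 ± 0.18 over virgin cells (adjusted p = 0.842). Rpl39l, which in the mouse is known from male germ cells, was the dimmest member at 24.6 and 47.9, 28.6 and 51.1, and 40.2 and 61.7. Replicate 2 was the higher array in each group, and the log2 fold change of −0.54 over virgin cells had a 95% interval between −1.85 and 0.77.

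**Figure D3:**
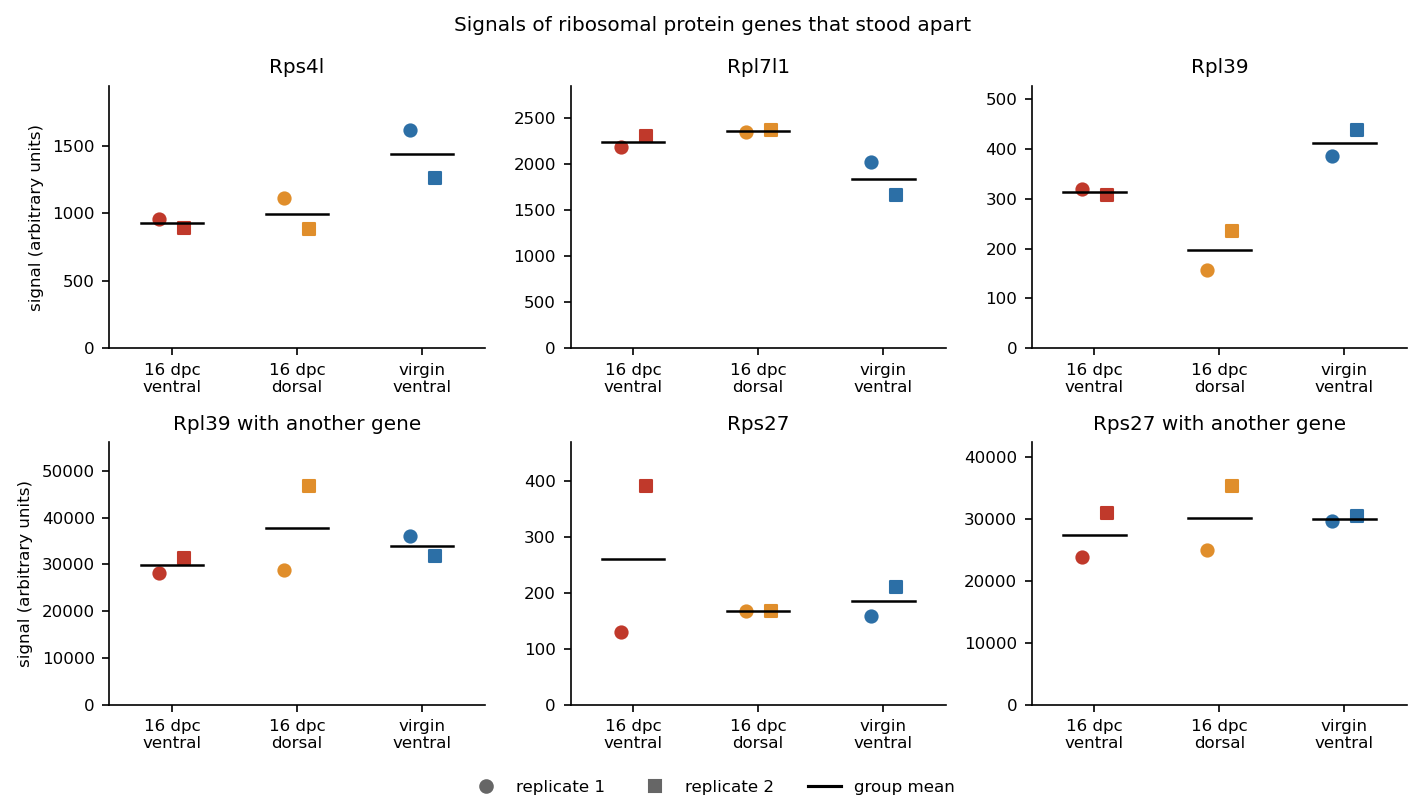
Signal in arbitrary units (y axis, from 0) of 6 probe sets in 16 dpc ventral, 16 dpc dorsal and virgin ventral cells, with circles for replicate 1, squares for replicate 2 and lines for group means. Rps4l is lower and Rpl7l1 higher on all 4 arrays of pregnant mice than on both virgin arrays, whereas Rpl39 and Rps27 differ between their own dim probe set and a brighter one that names another gene too.

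Other genes of translation were read beside them. Fau, a small-subunit protein gene with a name outside the rule, gave 21726 and 25954 in 16 dpc ventral, 24137 and 31109 in 16 dpc dorsal, and 27236 and 27996 in virgin ventral cells, and its log2 fold change over virgin cells was −0.22 ± 0.19 (adjusted p = 0.713). The 5 elongation factor genes had medians of −0.12 over virgin and −0.17 over dorsal cells, with 0 past the test (limma, 0 at an unadjusted p under 0.05). For 15 mRNAs of the TOP class outside the ribosomal protein genes the medians were −0.03 and −0.13, again with 0 past the test and 0 at an unadjusted p under 0.05. For 29 initiation factor genes they were 0.13 and −0.02, with 0 past the test and 1, Eif2b5, at an unadjusted p under 0.05 over virgin cells. Over all genes, 0.2% passed over virgin and 0.0819% over dorsal cells, and 11.6% and 5.09% had an unadjusted p under 0.05. For lists this short a count of 0 past the test lies near those shares. The TOP list shares genes with the elongation factor and initiation factor lists, so these lists are not independent of each other.

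Genes that make ribosomes, rather than form part of them, had higher medians over virgin cells. Of 23 genes of ribosomal RNA transcription and early assembly, 20 had a higher mean in 16 dpc ventral than in virgin ventral cells, with a median of 0.26, and 0 passed the test, with 9 at an unadjusted p under 0.05 (limma). Over all genes, 5825 of 10993 had a higher mean and 11.6% had an unadjusted p under 0.05. Of 20 genes of ribosomal protein import, late assembly and export, 17 had a higher mean, with a median of 0.34, 0 past the test and 6 at an unadjusted p under 0.05. Pno1, an assembly factor of the small subunit, gave 1868 and 1833 in 16 dpc ventral, 1474 and 1342 in 16 dpc dorsal, and 1087 and 949 in virgin ventral cells, without overlap and with a log2 fold change of 0.87 ± 0.16 over virgin cells (adjusted p = 0.0951). Nolc1, a nucleolar chaperone, gave 1434 and 1488, 1339 and 1162, and 953 and 791 in the same order, which is 0.75 ± 0.17 over virgin cells on the log2 scale (adjusted p = 0.184). Against dorsal cells the medians of these lists were 0.01 and 0.02. The 9 markers of cycling cells had medians of 0.87 over virgin and 0.89 over dorsal cells, with 9 of 9 higher in the mean in both comparisons, and their part in the assembly lists was not tested. Nor was the difference between these lists and the ribosomal protein genes.

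The ribosomal protein genes of mitochondria, which are a separate set, had a median of 0.23 over virgin cells, with 61 of 76 higher in the mean, 0 past the test and 11 at an unadjusted p under 0.05 (limma), a count to be read beside the 11.6% of all genes. The lowest p was that of Mrpl33, at 0.96 ± 0.17 on the log2 scale (adjusted p = 0.0936). Of 14 genes of mTORC1 and of TOP mRNA control, 1 passed the test over virgin cells, beside 22 of all 10993 genes (0.2%). This gene, Deptor, an inhibitor of mTOR, gave 3795 and 4045 in 16 dpc ventral, 3354 and 2718 in 16 dpc dorsal, and 1508 and 1339 in virgin ventral cells. It was higher in 16 dpc ventral than in virgin ventral cells by 1.46 ± 0.16 on the log2 scale (adjusted p = 0.0142), and the median of the 14 genes was 0.00. The difference lay between 1.38 and 1.67 in the 16 other settings, with adjusted p between 0.000229 and 0.183. The call was lost in 6 of them: without the variance trend (0.128), with averaged probe sets (0.171), without virgin ventral replicate 1 (0.0674) or 2 (0.183), and without 16 dpc ventral replicate 1 (0.0825) or 2 (0.113).

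**Figure D4:**
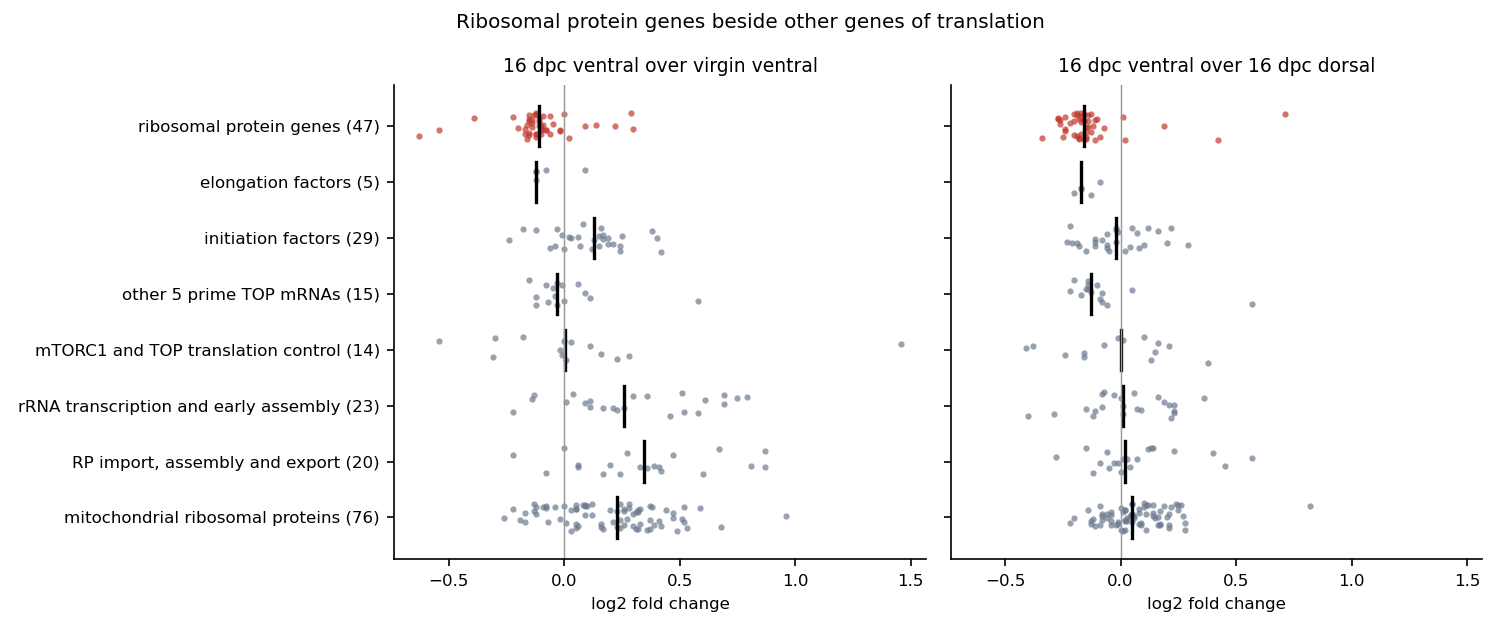
Log2 fold change (x axis) of each gene in 8 lists (rows, number of genes in brackets) for 16 dpc ventral cells, set over virgin ventral cells on the left and over 16 dpc dorsal cells on the right, with black lines at the medians. Some lists share genes. With deposited signals the medians of ribosomal protein genes and elongation factors lie left of 0 in both panels (for ribosomal protein genes over virgin cells, right of 0 after median centring), and the assembly lists have medians of 0.26 and 0.34 in the left panel and 0.01 and 0.02 in the right panel.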

How the data were processed

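RNA of sorted α6-integrin-positive basal cells was measured on 6 Affymetrix mouse 3′ arrays, grouped by the sample labels, whose day of gestation was used where column headers differ slightly. The deposited values are signal intensities with detection calls, made by the authors with Affymetrix Expression Console version 1 (MAS5) and scaled by them to one trimmed mean per array. Such scaling hides any change in the total RNA of a cell. Control probe sets were left out. The platform annotation gave 34945 probe sets 1 gene, 932 several and 9160 none, and 34741 of the first matched RefSeq by gene number. Signals were floored at 1 and put on the log2 scale, and each gene was read from its probe set of highest mean. The 10993 genes with a present call on both arrays of any group were fitted to all 3 groups with limma 3.58.1 in R 4.3.3 (lmFit, then eBayes with a variance trend, with 3 residual and 5.79 prior degrees of freedom). Tests were two-sided and adjusted by Benjamini-Hochberg over these genes, with a threshold of 0.05. Fold changes compare mean log2 signals, and values after ± are standard errors unless marked SD. The fit was tested on simulated data in which each gene varied on its own, without a shift common to an array. That test therefore does not cover the array shift described above.

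Named were members past the threshold, the 6 highest and 6 lowest per comparison, the 4 of widest range, the stalk and the paralogs, and of other lists the genes past the threshold and some of the 3 of smallest p. The members and lists were chosen with earlier results of these data known. Start windows and promoters came from RefSeq (GRCm38.p6), and a gene counted once if any of its windows matched. Alternatives covered the variance trend, replicate number, choice of probe set, detection filter, floor, scaling and arrays left out.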

Additional observations from a re-analysis of the deposited data

How the results depend on the processing

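In all 51 fits (17 settings of 3 comparisons) 0 ribosomal protein genes passed the threshold, and the smallest adjusted p was 0.0787, for Rpl39 in 16 dpc dorsal over virgin ventral cells without both 16 dpc arrays numbered 2. That fit holds 1 array in each pregnant group, so its p-values and counts assume that these vary like the 2 virgin arrays. For the dim members Rpl27a, Rpl39l and Rps27 the intervals reached past a 2-fold change in each comparison. The interval of Rps4l did so in 16 dpc ventral over virgin ventral cells (−1.07 to −0.19). That of Rpl39 did so in 16 dpc ventral over 16 dpc dorsal (0.12 to 1.3) and in 16 dpc dorsal over virgin ventral cells (−1.69 to −0.51). The median log2 fold change of the 47 genes depended on scaling: in the order 16 dpc ventral over virgin ventral, 16 dpc ventral over 16 dpc dorsal, 16 dpc dorsal over virgin ventral it was −0.11, −0.16 and 0.06 as deposited, −0.02, −0.01 and −0.01 after quantile normalisation and 0.09, −0.13 and 0.23 after median centring. Between deposited signals and median centring its sign changed only in 16 dpc ventral over virgin ventral cells. After quantile normalisation 26 genes were lower and 21 higher in 16 dpc ventral over 16 dpc dorsal cells. In 16 dpc dorsal over virgin ventral cells 25 were lower and 22 higher, so the medians of −0.01 give no direction. The cause of the dependence on scaling was not tested. Leaving out single arrays gave medians between −0.22 and −0.02, −0.37 and 0.04, and −0.15 and 0.26. Without 16 dpc dorsal replicate 2 the medians against or of dorsal cells were 0.04 and −0.15, without 16 dpc dorsal replicate 1 they were −0.37 and 0.26, and without both 16 dpc arrays numbered 2 they were −0.22, −0.06 and −0.15.

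The count of all genes called, 22, 9 and 0 in the same order, moved much more. It was 0, 1 and 0 without a variance trend, 5, 0 and 0 when a gene's probe sets were averaged, 17, 8 and 1 with only probe sets ending _at or _a_at, 22, 7 and 5 with genes present on all 6 arrays, 22, 11 and 7 after quantile normalisation, 190, 34 and 70 after median centring, and 115, 24 and 62 without both 16 dpc arrays numbered 2. Leaving out single arrays gave between 1 and 59, 0 and 7, and 0 and 33. A fit with replicate number as the block gave 86, 16 and 11, with 0 ribosomal protein genes. Deviations of same-numbered arrays correlated at 0.007 for 16 dpc ventral with virgin ventral, 0.448 for 16 dpc ventral with 16 dpc dorsal and 0.029 for 16 dpc dorsal with virgin ventral cells over 10993 genes, and only 1 of these 3 was above 0.1. Same-numbered arrays also share a prefix in the column headers, whose meaning is not stated. The numbers were not taken as pairs in the comparisons above, and whether the ventral and dorsal 16 dpc arrays of one number share mice or a run was not tested.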
